A study of Mus musculus with 20 samples.

Results

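C3aR, the product of C3ar1, is the receptor for the complement fragment C3a. C3a is released when the central complement protein C3 is cleaved, and C3aR passes its signal through inhibitory (Gi) heterotrimeric G proteins, arrestins and PI3-kinase gamma. In the adult brain C3aR is found mainly on microglia, the resident macrophages, where it takes part in chemotaxis, cytokine production and the clearance of synapses and debris. What losing the receptor does to microglia when there are no amyloid plaques was examined here in 6 of the 20 libraries of the series: the 3 from C3aR-KO mice and the 3 from WT littermates that carry no App mutation. All genes listed were considered, 12393 of the 21315 symbols passed the filter on low values described below, and the members of each gene list are accounted for beside it.

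All mice were 9 months old and of the C57BL/6 strain. C3aR-KO mice carry a germline deletion of C3ar1 in every cell, not only in microglia. The line had been backcrossed to C57BL/6J for 5 generations before the crosses that gave the littermates. Brains were digested with papain and DNase, and microglia were sorted as CD45mid CD11b+ cells with no selection on C3aR. A further 8 libraries, sorted in the same way, entered the fit to estimate the spread and served as a second comparison. Of these, 3 came from APP-KI mice, which carry a mutated humanised App gene and develop plaques, and 5 from APP-KI; C3aR-KO double mutants. The labels number the libraries of a group as replicates without naming mice, so a p-value here measures the spread between these libraries. The library numbers fall into a first series (WT replicate 4, C3aR-KO replicates 1 and 2) and a second (WT replicates 5 and 6, C3aR-KO replicate 3), and the fit included this series as a term. In bulk RNA of this kind, fewer cells of a type and less RNA per cell cannot be told apart.

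The 6 libraries held between 61843354 and 76608464 reads each. Values are the deposited read counts, which the authors divided by the upper quartile of each library, multiplied here by 1 constant, and are called scaled values (near CPM, not divided by gene length). Despite their depth, C3aR-KO replicates 1 and 2 stood apart. At least 1 read was found for 12702 and 13055 genes in them, against 15950 in C3aR-KO replicate 3 and 15551 to 16632 in WT. Of the 9623 genes at a scaled value of 5 or more in every WT library, 63 had 0 reads in C3aR-KO replicate 1, 165 in replicate 2 and 0 in replicate 3. For genes at a WT mean of 20 to 100, the SD of the log2 ratio to WT was 0.52 in C3aR-KO replicate 1, 0.81 in replicate 2 and 0.18 in replicate 3, where the WT libraries set against each other gave 0.17 to 0.25. C3aR-KO replicate 3 therefore lay as close to WT as the WT libraries did to one another, and the spread of the knockout group comes from the other two libraries. Both belong to the first series, which holds 1 WT library. The 8 further libraries in the fit were uneven too. At least 1 read was found for 13250 genes in APP-KI replicate 4, 21219 in APP-KI replicate 5 and 12387 in APP-KI; C3aR-KO replicate 1. The others had 15818 to 17450. All of them enter the filter, the estimate of the spread and the differences between double mutants and APP-KI. The list medians, and the differences that move most without them, are also given with C3aR-KO replicate 3 as the only knockout library.

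**Figure D1:**
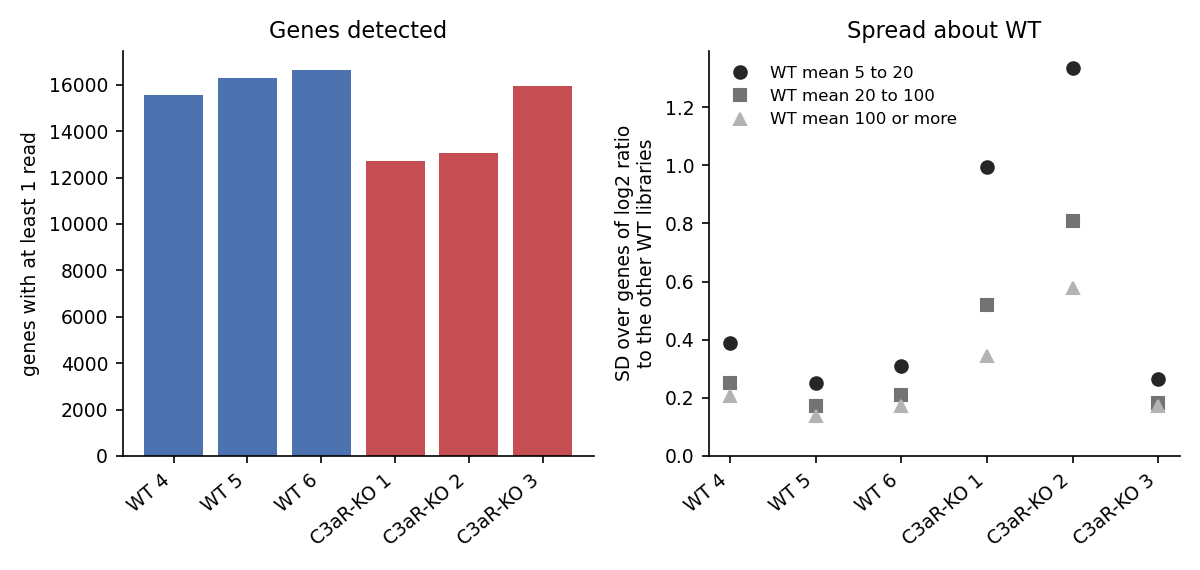
Left, the number of genes with at least 1 read in each of the 6 libraries (bars, WT in blue, C3aR-KO in red). Right, the SD over genes of the log2 ratio of each library to the other WT libraries, for 3 ranges of the WT mean scaled value (symbols); C3aR-KO replicates 1 and 2 lie highest in every range, and C3aR-KO replicate 3 lies within the range of the WT libraries.

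The sorted cells carried the markers of their label. All 12 defining microglial markers, among them the receptor Csf1r, the fractalkine receptor Cx3cr1 and the purinergic receptor P2ry12, were detected in every library, with a summed scaled value of 28882 to 31104 in WT and 18083 to 28941 in C3aR-KO. The lowest sum was that of C3aR-KO replicate 2. The 11 neuronal markers found, of 12 listed, summed to 8.8 to 10.8 in WT and 5.3 to 9.5 in C3aR-KO.

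C3ar1 was read first, as a check of the labels. It lies on chromosome 6 of GRCm38 (the same assembly as mm10), chr6:122847138-122856161, on the minus strand. Its scaled value was 274, 327 and 337 in WT replicates 4, 5 and 6, and 67.6, 39.6 and 65.2 in C3aR-KO replicates 1, 2 and 3. The groups did not overlap, and the lowest WT library was 4.05 times the highest knockout library. The mean fell from 313 ± 34.3 to 57.4 ± 15.5 (SD, n = 3 each), so that 18.4% of the WT level of reads remained. Between 2537 and 4620 reads per knockout library were still counted for the gene. The deposited counts are totals per gene, so they do not show from which exons those reads come. The change was -2.39 on the log2 scale (SE 0.27, 95% interval -2.95 to -1.82, adjusted p = 0.0034, limma). It was -2.38 within the first series and -2.33 within the second, and -2.30 with C3aR-KO replicate 3 as the lone knockout library. An exact permutation test over the 6 libraries, two-sided, gave p = 0.10, the smallest value that its 20 arrangements allow. In the plaque-bearing pair C3ar1 was between 164 and 385 in APP-KI and between 61.4 and 79.7 in the double mutants, a change of -1.95. A test of the difference between both changes did not pass (interaction adjusted p = 0.999, limma).

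**Figure D2:**
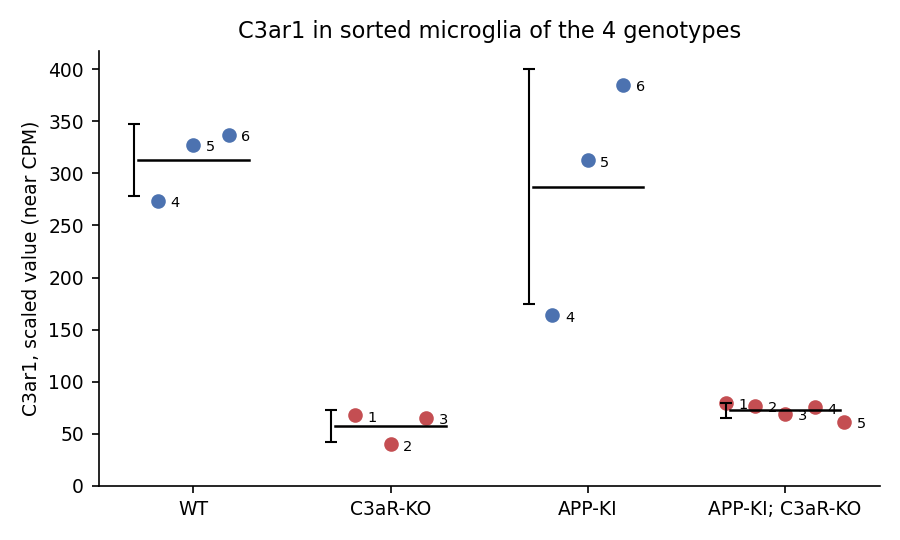
Scaled value of C3ar1 (near CPM) in the 14 libraries of 4 genotypes; points are libraries with their replicate number, bars the mean and SD of each group, and red marks genotypes that lack C3ar1. All 8 libraries without C3ar1 lie at 79.7 or below, and all 6 others at 164 or above.

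Apart from the deleted gene itself, the comparison called no change. At an adjusted p under 0.05, 0 genes were higher and 1 gene, C3ar1, was lower in C3aR-KO than in WT (0.00807% of 12393 genes tested, limma with Benjamini-Hochberg adjustment). The count depended on the tool: edgeR also called 0 higher and 1 lower, and DESeq2 called 1 higher and 8 lower. Most of those 8 were genes of few reads in WT and 0 reads in every C3aR-KO library, described at the end. With no adjustment for the number of tests, p was under 0.05 for 123 higher (0.992%) and 221 lower genes (1.78%), which together is 2.78% of those tested. The 3 knockout libraries lay above all 3 WT libraries in 1136 genes (9.17%) and below them in 1154 (9.31%). The median change over all genes was -0.03 on the log2 scale. Without WT replicate 4 C3ar1 did not pass either, and without C3aR-KO replicate 3 the calls came to 1 higher and 20 lower.

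The width of the intervals, which are not adjusted for the number of tests, depended on the level of the gene. The median half-width of the 95% interval was 0.42 on the log2 scale for the 2347 genes at a mean scaled value of 100 or more, 0.57 for those at 20 to 100, 1.05 at 5 to 20 and 1.36 at 1 to 5. Among genes at 100 or more, the whole interval lay between -1 and 1 for 93.0%, so for most well-measured genes a change of 1 on this scale in either direction lay outside the interval. Among genes at 1 to 5 the same held for 0.354%, so at this level nearly every interval reached beyond -1 or 1. An unadjusted p under 0.05 was found for 76 of these genes (3.85%), beside 2.78% of all genes. A call at the adjusted p asks for more than an interval apart from 0, so the half-widths do not give the smallest change that could be called. Tlr2 and Mical3, both at 100 or more, each differed by -0.97 and were not called (adjusted p = 0.995, limma).

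The genes that stood out below that threshold fell into a few kinds. Among the 49 genes at 100 or more with an unadjusted p under 0.05, those with the largest differences after C3ar1 were Gatm, Tlr2, Mical3, Hpgd and Col6a3, which were chosen for description after their values were seen. Tlr2 encodes the Toll-like receptor for bacterial lipopeptides. It measured 120, 131 and 161 in WT and 40.8, 46.0 and 103 in C3aR-KO, a difference of -0.97 (SE 0.21, adjusted p = 0.995, limma). Tlr2 was among the 8 genes that DESeq2 called lower (-1.004, SE 0.23, adjusted p = 0.0338). The groups did not overlap, but C3aR-KO replicate 3 lay close to the lowest WT library, and with it alone the difference was -0.62. Gatm, the first enzyme of creatine synthesis, measured 146, 185 and 192 in WT and 25.9, 81.0 and 107 in C3aR-KO, a difference of -1.29 (SE 0.45). Hpgd, which degrades prostaglandins, measured 297, 229 and 206 in WT and 94.0, 148 and 162 in C3aR-KO, a difference of -0.86 (SE 0.29). Both lay below WT in all 3 knockout libraries. Col6a3, a collagen VI chain, measured 166, 149 and 144 in WT and 288, 260 and 286 in C3aR-KO. Its difference of 0.83 (SE 0.21) was nearly the same in the 3 knockout libraries, including replicate 3, where it was 0.94. In the plaque-bearing pair the differences were -0.09 for Tlr2, -0.11 for Gatm, 0.21 for Hpgd and -0.15 for Col6a3, where 1.18% of all genes had an unadjusted p under 0.05, and none of the 4 tests of the difference between the pairs passed (interaction adjusted p = 0.999 for each, limma).

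The 10 largest positive and 10 largest negative differences were taken from the 91 higher and 101 lower genes that had an unadjusted p under 0.05, a mean scaled value of at least 5, libraries that did not overlap and the same direction in both series. Apart from C3ar1 none passed the adjusted p in limma, where it was 0.995 for each, and DESeq2 called 1 of them besides C3ar1, Cspg4. The largest positive one was that of Ikbke, a kinase of the interferon and NF-kB pathways, which measured 1.39, 0.708 and 2.20 in WT and 5.02, 18.6 and 3.04 in C3aR-KO, a difference of 1.48. Olfr111, an olfactory receptor gene expressed in microglia that has a close paralog and whose reads may be split with it, measured 21.6, 12.7 and 15.8 in WT and 52.5, 113 and 29.8 in C3aR-KO, a difference of 1.41. In both genes C3aR-KO replicate 2 was far above the other knockout libraries. Rxrg, Cfap97d1, Cspg4, Prelid3a, Erc1, Inpp1, Zfp458 and Ccdc173 followed, with differences of 0.98 to 1.23. Cspg4, the NG2 proteoglycan of oligodendrocyte precursors and pericytes, measured 2.01, 3.29 and 4.23 in WT and 9.27, 11.9 and 4.60 in C3aR-KO. DESeq2 called it higher (1.53, SE 0.36, adjusted p = 0.0345). The limma difference of 1.19 was 1.94 within the first series and 0.24 within the second.

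In most of the negative differences, as in most of the positive ones, C3aR-KO replicate 3 was the knockout library closest to WT. The exceptions among the positive ones were Erc1 and Zfp458. Eps8l1, an actin-regulating adaptor, measured 17.5, 23.0 and 11.8 in WT and 0.585, 6.80 and 2.90 in C3aR-KO, a difference of -2.54 (SE 0.89), and was low in all 3 knockout libraries. In the other 8, a low value or 0 reads in C3aR-KO replicates 1 and 2 stood beside a value closer to WT, though below all 3 WT libraries, in replicate 3. Zfp51, a zinc finger gene, was at 0 reads in C3aR-KO replicates 1 and 2 and at 7.74 in replicate 3, where WT lay between 7.87 and 11.3. Hyal2, a hyaluronidase, measured 1.77, 0 and 12.3 in C3aR-KO and 13.35 to 14.04 in WT. Nenf, a secreted neurotrophic factor, measured 1.71, 1.25 and 17.1 in C3aR-KO and 20.9 to 23.1 in WT. Gm13889, Iah1, Zfp455, Chchd1 and Kif11 had the same form. With C3aR-KO replicate 3 as the only knockout library, the 8 differences lay between -0.70 and -0.23, and that of Eps8l1 was -1.87. The low complexity of C3aR-KO replicates 1 and 2 moves with these differences, and its part in them was not tested.

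**Figure D3:**
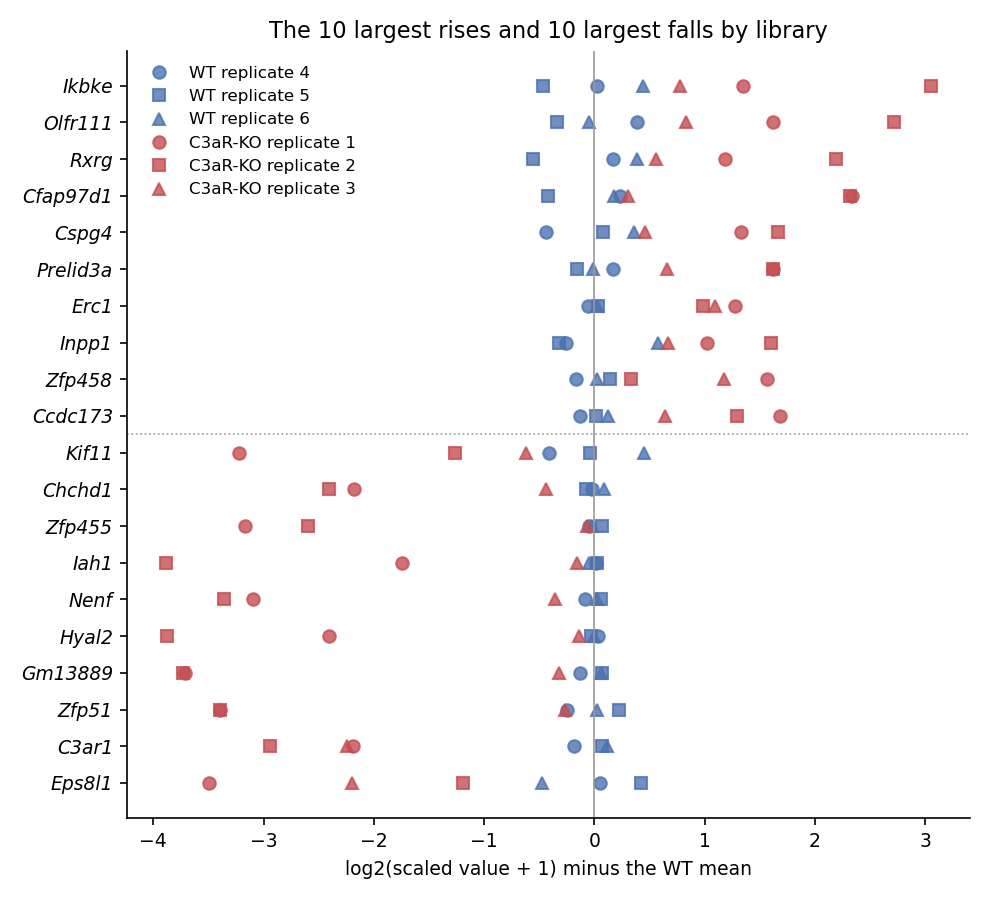
The 10 largest positive (above the dotted line) and 10 largest negative differences (below it): log2(scaled value + 1) of each library minus the mean of the WT libraries, WT in blue and C3aR-KO in red. C3ar1, Eps8l1 and Erc1 are among those shifted in all 3 knockout libraries. In 8 of the 10 negative differences C3aR-KO replicate 3 (red triangle) lies closest to WT, as it does in the positive ones other than Erc1 and Zfp458.

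The complement system is the pathway in which C3aR acts. Of its 26 listed genes, 26 were found and 20 passed the filter. C3ar1 fell, 0 rose, and besides it 3 members had an unadjusted p under 0.05, all lower, beside 1.78% of all genes. C4b, which forms the classical C3 convertase, measured 61.1, 117 and 130 in WT and 37.0, 63.3 and 61.9 in C3aR-KO, a difference of -0.69 (SE 0.25). Cd93, a C1q-binding membrane lectin, measured 35.9, 48.1 and 52.0 in WT and 19.99, 24.3 and 36.2 in C3aR-KO (-0.68). In both genes the knockout libraries overlapped only with WT replicate 4, the WT library of the first series. It also had 2031 reads of the Y-linked gene Eif2s3y, against 0 in the other WT libraries. C1ra, a protease of the C1 complex, was at 0 in C3aR-KO replicates 1 and 2 and at 3.46 in replicate 3, within the WT range of 2.89 to 4.21. The opsonising C1q chains differed by -0.22 for C1qa, -0.15 for C1qb and -0.29 for C1qc, with intervals that include 0. The ligand precursor C3 measured 10.6, 6.48 and 99.6 in WT and 49.6, 66.3 and 10.8 in C3aR-KO, so its groups overlapped widely. The neutrophil granule gene Ngp was also highest in WT replicate 6, at 359, against 12.5 to 39.4 in the other WT libraries. In C3aR-KO replicates 1, 2 and 3 it measured 124, 4.74 and 35.1. Among these it was lowest in replicate 2, where C3 was highest. The part of neutrophil material in the level of C3 was not tested. The sister receptors C5ar1 and C5ar2 measured 67.0, 89.4 and 88.0, and 135, 140 and 128, in WT. In C3aR-KO they measured 49.5, 33.1 and 94.4, and 120, 100.2 and 143, with differences of -0.35 and -0.07. Among the receptors for cleaved C3, Itgam differed by -0.06, Itgax by 0.23 and Itgb2 by 0.11. The median over the 20 genes was -0.18, beside -0.03 over all genes.

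The machinery downstream of the receptor gave no call. Of 35 listed genes for Gi coupling, arrestins, receptor kinases and PI3-kinase gamma, 33 were tested and 0 passed the adjusted p. At an unadjusted p under 0.05, 1 was lower, beside 1.78% of all genes. That was Rgs2, which speeds the shut-off of G protein signals, at 384, 400 and 393 in WT and 280, 286 and 333 in C3aR-KO (-0.42, SE 0.17). Gnai2, the main inhibitory G protein subunit of myeloid cells, measured 925, 989 and 943 in WT and 856, 660 and 923 in C3aR-KO, a difference of -0.06 (95% interval -0.70 to 0.58). Arrb2 differed by 0.09 (-0.21 to 0.38), Grk2 by -0.01 (-0.27 to 0.24) and the PI3-kinase subunit Pik3cg by -0.04 (-0.37 to 0.30). The median of this list was -0.02. In a list of 22 for other chemoattractant and Gi-coupled receptors, which also holds the UDP receptor P2ry6, 19 were tested and 0 passed the adjusted p. Knockout libraries lay below all WT libraries in 5 of the 19 and above them in 0, where all genes gave 9.31% and 9.17%. This was not particular to these receptors. Among 29 reactive genes 7 lay below and 1 above, and among 27 homeostatic genes 6 lay below and 1 above. P2ry6, which triggers phagocytosis, was the 1 member with an unadjusted p under 0.05, and was lower, beside 1.78% of all genes. It measured 219, 247 and 238 in WT and 106, 83.9 and 245 in C3aR-KO, so that replicate 3 was at the WT level. Cx3cr1 measured 6028, 6583 and 6235 in WT and 5108, 3605 and 6050 in C3aR-KO (-0.19, 95% interval -1.04 to 0.66).

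The study followed C3aR to the hypoxia-inducible factor HIF-1 and to lipid handling. HIF-1 is a transcription factor that, when oxygen is low, turns on glycolytic enzymes and glucose transporters. Of the 26 genes of the study's hypoxia module, 25 were tested, 0 passed the adjusted p and 2 had an unadjusted p under 0.05, both higher, beside 0.992% of all genes. Hif1a itself measured 141, 156 and 177 in WT and 208, 211 and 153 in C3aR-KO, a difference of 0.41 (SE 0.27, 95% interval -0.16 to 0.99). Its knockout libraries of the first series were above WT and that of the second was within the WT range. Pdk1, which encodes pyruvate dehydrogenase kinase 1, measured 91.5, 93.6 and 99.3 in WT and 125, 115 and 114 in C3aR-KO. Its difference of 0.31 (SE 0.13) appeared in both series, at 0.39 and 0.24. Bhlhe40, a repressor induced by hypoxia and cytokines, measured 2.88, 6.56 and 8.44 in WT and 14.8, 68.2 and 4.31 in C3aR-KO, and its difference of 1.49 turned to -0.56 with C3aR-KO replicate 3 alone. Vegfa, Ldha and Slc2a1 differed by 0.27, 0.04 and -0.11. The median of the module was -0.03, the same as that of all genes.

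Energy metabolism showed no call either. Among 26 genes of glycolysis, glucose and lactate transport, the median was -0.04. An unadjusted p under 0.05 was reached by Pdk1, which was higher, and by 1 lower gene, beside 0.992% and 1.78% of all genes. The lower one, the enolase Eno1, measured 92.2, 93.6 and 99.02 in WT and 54.1, 36.5 and 95.6 in C3aR-KO. Its count is uncertain, since a near-identical copy shares its reads. Among 40 nuclear-encoded subunits of oxidative phosphorylation the median was -0.14. An unadjusted p under 0.05 was reached by 2 lower genes, beside 1.78% of all genes. They were the complex I subunit Ndufs8 (37.9, 42.9 and 41.0 in WT; 26.5, 9.80 and 37.1 in C3aR-KO) and the complex II subunit Sdhc (35.9, 41.8 and 37.3; 24.4, 11.5 and 36.4). In all 3 of these genes C3aR-KO replicate 3 lay near or within the WT range.

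Of the study's 14 lipid genes, 13 were tested and 0 passed at either p, with a median of -0.15. Apoe, the main lipid carrier of the brain, measured 2932, 5604 and 5836 in WT and 4403, 3410 and 2942 in C3aR-KO. The difference of -0.10 (SE 0.42, 95% interval -1.002 to 0.797) was 0.40 within the first series and -0.96 within the second, so the direction was not the same in both. Plin2, which coats lipid droplets, measured 28.2, 50.2 and 49.8 in WT and 39.4, 30.1 and 33.1 in C3aR-KO (-0.11, SE 0.30). Sorl1, a sorting receptor for APP, had the largest positive difference among well-measured members, 0.55 (SE 0.29), at 171, 134 and 181 in WT and 187, 232 and 230 in C3aR-KO. Fabp5 had 0.90 (SE 0.54) at a low level. Of 23 genes of cholesterol synthesis and uptake, 0 passed at either p, and their median was -0.15.

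The state of the microglia was read from 3 lists. Of 28 homeostatic genes 27 were tested, with 0 calls at either p and a median of -0.16. The difference was negative for 23 of them, where 6622 of all 12393 genes were negative. Within the first series the median was -0.46, and within the second -0.03. Tmem119, a membrane protein that marks resident microglia, measured 1772, 1939 and 1713 in WT and 1362, 721 and 1858 in C3aR-KO. C3aR-KO replicate 2 was the lowest and replicate 3 was within the WT range. Of 30 genes of reactive, disease-associated microglia 29 were tested, with a median of -0.21. An unadjusted p under 0.05 was reached by 1 that was higher and 1 that was lower, beside 0.992% and 1.78% of all genes. Igf1, a growth factor made by activated microglia, measured 10.1, 29.8 and 25.8 in WT and 8.47, 4.59 and 9.55 in C3aR-KO, a difference of -1.07 (SE 0.25, adjusted p = 0.995, limma). DESeq2 called Igf1 lower (-1.17, SE 0.28, adjusted p = 0.0391), and with C3aR-KO replicate 3 alone the limma difference was -1.29. Every knockout library lay below every WT library, although WT replicate 4 lay just above them. In the plaque-bearing pair Igf1 was at 147 to 237 in APP-KI and 150 to 359 in the double mutants, with no difference (0.00). Csf1, the ligand of Csf1r, measured 20.8, 31.5 and 44.2 in WT and 30.6, 28.7 and 68.7 in C3aR-KO (0.52, SE 0.23). Its highest value was that of replicate 3.

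Phagocytosis is a function that the study measured in microglia lacking C3aR. Of 26 genes of phagocytosis and its receptors 25 were tested, with 0 calls at either p and a median of -0.13. Trem2 measured 806, 790 and 779 in WT and 704, 520 and 705 in C3aR-KO, below WT in all 3 libraries, with a difference of -0.15 (95% interval -0.67 to 0.36). Its adaptor Tyrobp measured 335, 417 and 419 in WT and 230, 144 and 319 in C3aR-KO (-0.51, SE 0.30). Cd36, a scavenger receptor for oxidised lipids, measured 12.2, 34.7 and 33.3 in WT and 8.25, 10.9 and 12.4 in C3aR-KO, where WT replicate 4 was at the knockout level. Mertk, which binds dying cells through bridging proteins, differed by 0.10 (-0.28 to 0.48).

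Immune effector genes were set beside the 1.78% of all genes that were lower at an unadjusted p under 0.05. Of 32 inflammatory genes 30 were tested and 2 were lower at that p. Pycard, the inflammasome adaptor, measured 60.3, 71.4 and 69.2 in WT and 39.4, 42.8 and 52.4 in C3aR-KO (-0.47, SE 0.18), lower in both series. Ccl7, a monocyte chemokine at low level, measured 3.02, 5.47 and 4.62 in WT and 1.02, 0 and 2.09 in C3aR-KO. Il1b measured 29.9, 81.7 and 133 in WT and 25.3, 232 and 37.2 in C3aR-KO, and Tnf 10.9, 18.8 and 22.6, and 11.98, 8.22 and 15.97. The ranges of both groups overlapped in each gene, with C3aR-KO replicates 1 and 2 outside the WT range for Il1b and replicate 2 below it for Tnf. Of 30 interferon-stimulated genes 28 were tested, with 0 at either p and a median of 0.00, which was 0.082 within the first series and -0.32 within the second. Of 18 genes of antigen presentation, 17 differences were negative, where 6622 of all 12393 genes were negative. The median was -0.27, and 1 member was lower at an unadjusted p under 0.05. That member was H2-DMb1, which loads peptides on MHC class II, at 50.9, 62.5 and 60.8 in WT and 32.6, 17.3 and 46.9 in C3aR-KO (-0.80, SE 0.25). Cd74, the class II invariant chain, measured 663, 1268 and 1401 in WT and 531, 649 and 719 in C3aR-KO (-0.54, SE 0.48). WT replicate 4 was at the knockout level in this gene, as it was for Apoe and Igf1.

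Macrophages of the brain borders carry CD11b but usually more CD45 than microglia, so the CD45mid gate would remove many of them. Their 10 markers summed to 1817, 3004 and 2685 in WT and to 1986, 1560 and 2614 in C3aR-KO, so the sums overlapped, and all 10 were detected in every library but C3aR-KO replicate 2, where 1 was at 0. Mrc1, the mannose receptor, measured 252, 635 and 541 in WT and 299.8, 190 and 299 in C3aR-KO (-0.53, SE 0.24). The median of the 10 markers was -0.50, the lowest of all lists. When the second series alone was fitted, an alternative chosen after the data were seen, 1 gene was higher (Erc1) and 5 were lower: C3ar1, Clec10a, Mgl2, Fgl2 and Plxnd1. Clec10a and Mgl2 encode lectins of perivascular and dermal macrophages. Clec10a measured 13.1, 40.3 and 41.6 in WT and 8.36, 17.9 and 11.8 in C3aR-KO, and Mgl2 24.6, 67.6 and 67.0, and 29.0, 25.3 and 28.5. In both, WT replicate 4 lay at the knockout level, and over all libraries the differences were -0.97 (SE 0.58) and -0.40 (SE 0.63). That fit has 1 knockout library, which is taken to vary like the others. The part of border macrophages in these differences, and in those of the class II genes, was not tested.

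Markers of other cells summed to far less than those of microglia in every library. The 13 lymphocyte markers summed to 8.3 to 13.4 in WT and 18.1 to 91.0 in C3aR-KO, without overlap, and 7 of them were tested, with a median of 0.43. Cd3g, a chain of the T cell receptor complex, was at 0.2496, 0.131 and 0.143 in WT and at 6.16, 38.7 and 2.03 in C3aR-KO, a difference of 2.45 (SE 1.19) that did not pass at an unadjusted p under 0.05. The 12 monocyte and neutrophil markers summed to 74.96 to 792 in WT and 104 to 298 in C3aR-KO, with a median of -0.16 over 11 that was 0.83 within the first series and -0.75 within the second. The 10 astrocyte markers summed to 274 to 325 and 356 to 388, with a median of -0.34, so their sum was higher in C3aR-KO while most members were lower. Most of that sum was 1 gene, Slc1a3, at 287, 278 and 229 in WT and 376, 277 and 323 in C3aR-KO. The 10 oligodendrocyte markers summed to 159 to 230 and 123 to 181, with a median of -0.34 over 6, and included Mbp, the myelin basic protein, at 65.4, 82.4 and 79.3 in WT and 25.9, 52.1 and 66.3 in C3aR-KO. The 10 endothelial and mural markers summed to 64.9 to 92.1 and 46.9 to 83.5, with a median of -0.31 over 9, and the 3 neuronal markers tested had a median of 0.10. The part of these cells in the other results was not tested.

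**Figure D4:**
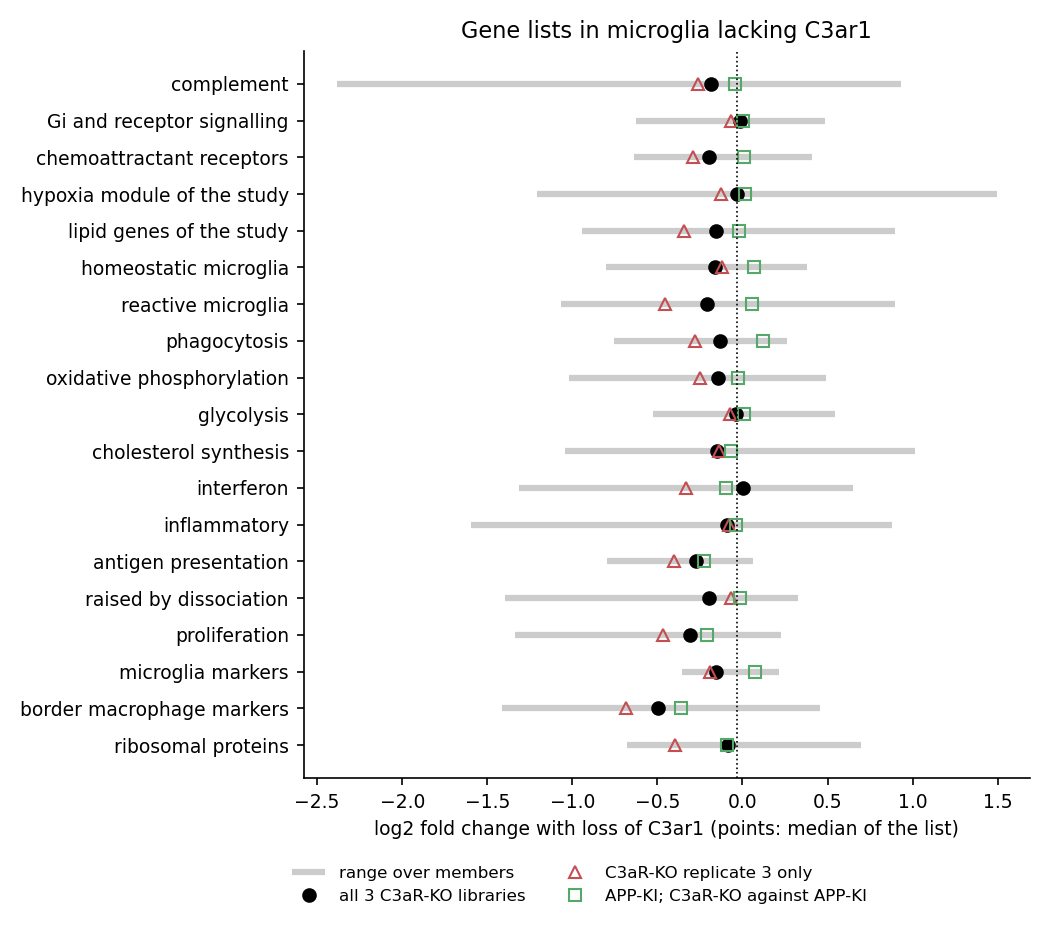
Log2 change with loss of C3ar1 for 19 gene lists: median over the tested members in C3aR-KO against WT (black), with C3aR-KO replicate 3 as the only knockout library (red triangles) and in double mutants against APP-KI (green squares), with the range over members (grey) and the median of all genes (dotted line). Medians of the black points lie between -0.50 for border macrophage markers and 0.00 for interferon-stimulated genes.

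Across the 16 lists of function, 377 distinct genes were tested. An unadjusted p under 0.05 was reached by 3 higher (0.796%) and 15 lower genes (3.98%), C3ar1 included, where all genes gave 0.992% and 1.78%. Knockout libraries lay above all WT libraries in 16 (4.24%) and below them in 53 (14.1%), where all genes gave 9.17% and 9.31%. Medians were below 0 in 15 of the 16 lists, between -0.31 and 0.00.

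With C3aR-KO replicate 3 as the only knockout library, an alternative chosen after the data were seen, the medians of the lists ran below 0 in all 16. Among those farther from 0 than with all 3 were reactive genes at -0.45, lipid genes at -0.34, phagocytosis at -0.28, oxidative phosphorylation at -0.25, interferon-stimulated genes at -0.33, proliferation genes at -0.46 and the hypoxia module at -0.12. Gi signalling and glycolysis stayed near 0, at -0.067 and -0.072. Complement was at -0.26, chemoattractant receptors at -0.29, antigen presentation at -0.40, homeostatic genes at -0.12, cholesterol genes at -0.14, inflammatory genes at -0.082 and dissociation genes at -0.068. The median of all genes was 0.01 in this fit. Marker medians were -0.68 for border macrophages, -0.86 for monocytes and neutrophils, 1.24 for lymphocytes, 0.18 for endothelial and mural cells, -0.19 for astrocytes and -0.14 for oligodendrocytes. Among single genes the difference shrank to -0.83 for Gatm, -0.54 for Hpgd, -0.38 for H2-DMb1, -0.35 for Cd93, -0.18 for Rgs2, -0.57 for Ccl7, -0.21 for Ndufs8, -0.20 for Sdhc, -0.14 for Eno1, -0.28 for Mbp and -0.082 for P2ry6. That of Hif1a turned to -0.28, while C4b was at -0.86, Pycard at -0.46, Pdk1 at 0.27, Csf1 at 1.02 and Mrc1 at -0.85.

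Genes close to C3ar1 on chromosome 6 were described apart. Whether the DNA flanking the deleted gene differs between the groups after 5 generations of backcrossing was not tested. Within 5 Mb of C3ar1 89 other genes were tested, of which 5 had an unadjusted p under 0.05 (5.62%), 2 higher and 3 lower, beside 2.72% on other chromosomes. Mical3, which oxidises actin, lies 1.92 Mb away (chr6:120931707-121130999, minus strand). It measured 191, 142 and 143 in WT and 78.2, 106 and 78.0 in C3aR-KO, without overlap, a difference of -0.97 (SE 0.24, unadjusted p = 0.00115). In the plaque-bearing pair, which shares no library with this one, it measured 71.5 to 160 in APP-KI and 41.3 to 69.9 in the double mutants, a difference of -0.92 (unadjusted p = 0.000645). Erc1, a scaffold of exocytosis and NF-kB signalling, lies 3.28 Mb away (chr6:119570796-119848167, minus strand). It measured 8.02, 8.61 and 8.58 in WT and 21.7, 17.7 and 19.1 in C3aR-KO (1.06, SE 0.32). In the plaque-bearing pair it was 22.2 to 23.0 in APP-KI and 26.3 to 69.1 in the double mutants (0.63), so it was higher without C3ar1 in both pairs. Neither passed the adjusted p over all genes in either pair (0.995 and 0.998, limma). The other 3 were Dcp1b (0.60), Atp6v1e1 (-0.44) and C1ra (-1.43), whose unadjusted p in the plaque-bearing pair was 0.942, 0.113 and 0.205.

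**Figure D5:**
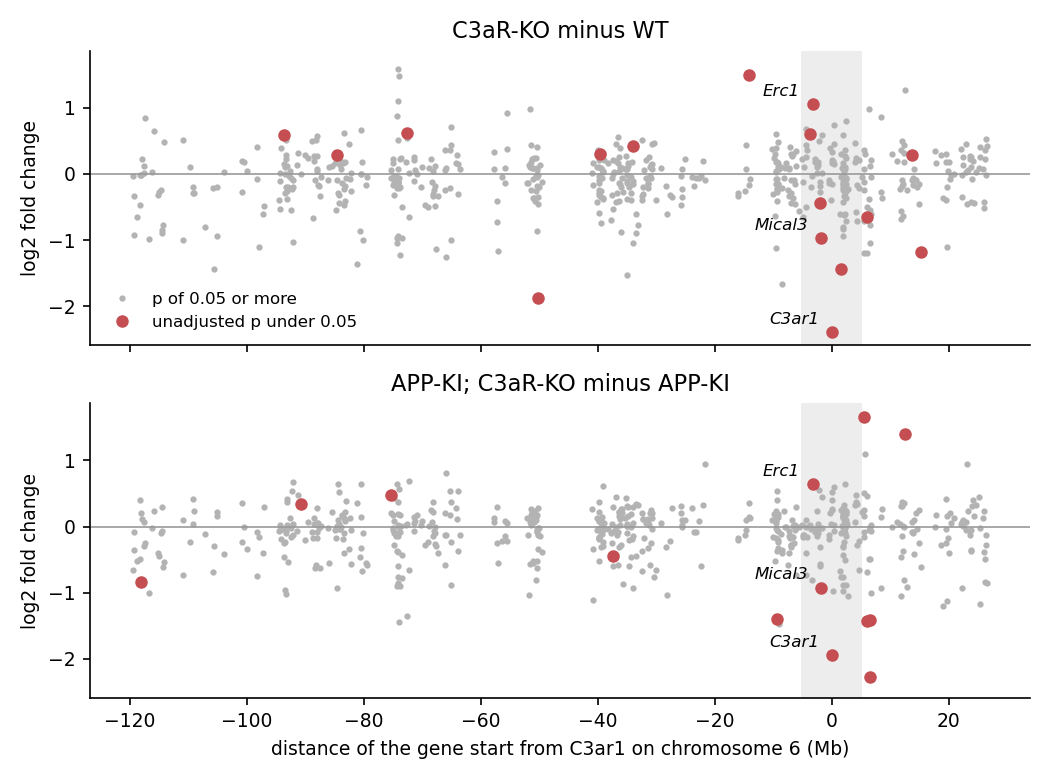
Log2 fold change of each tested gene of chromosome 6 against the distance of its start from C3ar1 (Mb), in C3aR-KO against WT (top) and in double mutants against APP-KI (bottom); red marks an unadjusted p under 0.05 and grey shading the 5 Mb window. C3ar1, Mical3 and Erc1 are marked in both panels with the same direction.

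Whether losing C3ar1 differed with and without plaques was tested directly. The test of the difference called 0 genes (0.0% of 12393, limma), with 203 at an unadjusted p under 0.05 (1.64%). edgeR called 0 as well, and DESeq2 called 1, Phyhipl, which had 15 to 117 reads in WT and 0 in every C3aR-KO library. In separate fits of the 6 and of the 8 libraries, which share none, 400 of 11844 genes had an unadjusted p under 0.05 in the 6. Their direction was the same in the 8 libraries for 59.0%, where all genes gave 53.2%. Only 29 genes had an unadjusted p under 0.05 in the 8, so a gene shared by both fits could hardly be frequent. C3ar1 and Mical3 had such a p with the same direction in both of these fits, and 0 genes did so in opposite directions. In the fit of all 14 libraries 4 genes had an unadjusted p under 0.05 in both pairs. The direction was the same for 3 of them, Erc1 included.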

How the data were processed

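Total RNA of sorted microglia had been made into libraries with a kit that uses unique molecular identifiers; whether duplicate reads were removed is not given in the sources used here. The authors' processing notes name cutadapt, TopHat2, featureCounts and DESeq2, and the mm10 assembly. The authors deposited values under the name FPKM that proved to be a signal, in which read counts were divided by the upper quartile of their library and gene length was not used. Reads could be recovered as whole numbers (100% of values under 1000 reads within 0.05 of a whole number). The values were multiplied by 34.9294, which brings the median library sum of 14 libraries to that of CPM.

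Of 21326 rows, 10 symbols were listed more than once, and 20937 symbols matched 1 gene of GENCODE M21 (GRCm38), whose coordinates are used. The 12393 genes whose scaled value averaged 1 or more in the 14 libraries were tested on log2(scaled value + 1), a scale that understates the change of low genes, with limma 3.58.1 (R 4.3.3) with a mean-variance trend, genotype and library series as terms, and Benjamini-Hochberg adjustment at 0.05. edgeR 4.0.16 and DESeq2 1.42.0 on the recovered reads, other scalings, filters and pseudocounts, and fits without each library were alternatives; the script was tested on simulated data. Intervals are at 95%. The exact permutation test used scipy 1.17.1. The comparison, its gene lists and the rules for named genes were chosen with earlier results of these data known, and the hypoxia and lipid lists were chosen by the study on other libraries of the series. Named were the 10 largest differences each way under the conditions given with them, and up to 4 members per list; members outside that rule were described after their values were seen. The 6 libraries sorted for C3aR+ cells were not used here.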

Additional observations from a re-analysis of the deposited data

How the results depend on the processing

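No paired analysis was possible because the WT libraries carry replicate numbers 4 to 6 and the C3aR-KO libraries 1 to 3, so the groups share none. The count of genes higher in C3aR-KO, 0, became 1 with DESeq2 and 1 with the second series alone, and ranged from 0 to 1 without each library. The count of lower genes, 1, became 0 without the trend, 0 with only the 6 libraries, 8 with DESeq2, 0 with C3aR-KO replicate 3 against the 3 WT libraries, 5 with the second series alone and 0 at the study's adjusted p of 0.0005, and ranged from 0 to 20 without each library. For the difference between the pairs DESeq2 called 1 gene where limma called 0. C3ar1 kept its direction throughout, at -2.55 to -2.19 without each library (without WT replicate 4 -2.42, adjusted p = 0.055, limma), but missed the threshold without the trend (-2.39, adjusted p = 0.068), with only the 6 libraries (-2.36, 0.18), with C3aR-KO replicate 3 alone (-2.30, 0.85) and at 0.0005 (-2.39). The fits on C3aR-KO replicate 3 alone, on the second series, on libraries with 15000 to 18000 genes with a read and with a filter at 50 were chosen after seeing the data. All but the filter at 50 hold C3aR-KO replicate 3 as their only C3aR-KO library, so they are not separate checks. A lone library is assumed to vary like the others.

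Without the series term the medians were -0.45 for complement, -0.37 for chemoattractant receptors, -0.51 for lipid genes, -0.31 for phagocytosis and -0.22 for ribosomal proteins. In the 6 libraries without it they were -0.45, -0.37, -0.44, -0.31 and -0.22, and -0.54 for reactive genes. With only the 6 libraries Gi signalling was at -0.084 and ribosomal proteins at -0.17. With the number of genes with a read as a covariate the medians were 0.10 for complement, -0.012 for chemoattractant receptors, 0.10 for the hypoxia module, -0.032 for antigen presentation, -0.48 for dissociation genes, 0.041 for microglial, 0.074 for oligodendrocyte and 0.20 for endothelial markers, and 0.13 for ribosomal proteins. Gi signalling was at -0.087 with quantile normalization, proliferation at -0.70 with array weights and astrocyte markers at -0.98 with a pseudocount of 0.1. Lymphocyte markers were at 1.22 with edgeR, 1.24 with DESeq2 and 1.24 with C3aR-KO replicate 3 alone, which put endothelial markers at 0.18 and ribosomal proteins at -0.40. In libraries with 15000 to 18000 genes with a read these were 0.33 and -0.33, and in the second series ribosomal proteins were at -0.26. Without each library in turn the medians ranged from -0.31 to 0.082 for complement, -0.12 to 0.070 for Gi signalling, -0.12 to 0.21 for the hypoxia module, -0.27 to 0.046 for phagocytosis, -0.49 to -0.052 for dissociation genes, -0.28 to 0.051 for microglial and -0.22 to 0.23 for neuronal markers, and -0.16 to 0.23 for ribosomal proteins. Bhlhe40 reversed to -0.56 with C3aR-KO replicate 3 alone, -0.56 in libraries with 15000 to 18000 genes with a read and -0.67 in the second series, C1ra to 0.015 in the first of these, and P2ry6 to 0.023 and 0.016 in the other 2. Each of these fits rests on the same C3aR-KO library, replicate 3. The cause of these shifts was not tested.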

Other observations

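The genes of dissociation and proliferation, counted above among the 16 lists of function, and those of the ribosome were not yet described. Of 29 genes raised by tissue dissociation, 0 were called and the median was -0.20. At an unadjusted p under 0.05, 1 was lower, beside 1.78% of all genes. That was Egr2, an immediate early transcription factor, at 12.2, 33.3 and 34.1 in WT and 2.33, 12.01 and 13.1 in C3aR-KO, so WT replicate 4 lay at the knockout level. Of 22 proliferation genes 21 were tested, with a median of -0.31. Birc5, an inhibitor of cell death in dividing cells, was the 1 member with an unadjusted p under 0.05, and was lower, beside 1.78% of all genes. It measured 2.38, 2.85 and 4.40 in WT and 0, 0 and 2.14 in C3aR-KO. The 30 ribosomal protein genes, whose reads can be shared with processed pseudogenes, had a median of -0.08. At an unadjusted p under 0.05, 1 was higher, beside 0.992% of all genes. That was Rpl5, at 16.9, 13.3 and 14.9 in WT and 25.1, 37.9 and 19.4 in C3aR-KO.

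DESeq2 called 5 further genes that had 0 reads in every C3aR-KO library, which allows up to 3 reads in each. Their scaled value was 1.53 or lower in every WT library. They passed the filter, a mean of 1 or more, only through the 8 further libraries. In limma the differences were -0.83 for Krt222, -0.98 for Phyhipl, -0.10 for Lingo1, -0.55 for Olfr115 and -0.23 for Gm8909 (adjusted p = 0.995 for each). Krt222 had 39, 37 and 43 reads in WT, Phyhipl 15, 117 and 105, Lingo1 18, 20 and 23, Olfr115 15, 19 and 30, and Gm8909 11, 3 and 2. Reads of the Y-linked genes Eif2s3y and Uty were above 1000 in WT replicate 4 and C3aR-KO replicate 1, and at 5 or fewer in the other 4 libraries, so 1 library in each group carried them. Both are of the first series, and WT replicate 4 is its only WT library. Where WT replicate 4 departs from the other WT libraries, sex and series therefore cannot be told apart.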
